A study of Homo sapiens with 12 samples.

Results

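The 9 genes described here encode the cytosolic sensors of double-stranded RNA, the oligoadenylate synthetase (OAS) family and ADAR: RIGI, IFIH1, DHX58, EIF2AK2, OAS1, OAS2, OAS3, OASL and ADAR. They were chosen by symbol, as 9 of the 24559 gene symbols in the deposited count table, and all 9 were among the 16538 genes that passed the filter on low counts. Polysome-associated RNA was sequenced from 3 established triple-negative breast cancer cell lines in 12 libraries that form 6 groups of 2. The lines MDA-MB-231 and SUM159 carried either a TRMT112 shRNA (KD) or the control that the labels call EV, which the study's methods describe as a non-silencing shRNA, both under puromycin selection. BT549 carried either a TRMT112 expression clone (OE) or its empty vector (EV), both under G418 selection. TRMT112 is the partner protein of several RNA and protein methyltransferases. No untransfected cells and no libraries of total RNA were analysed, so ribosome loading could not be separated from mRNA amount. Fewer cells expressing a gene and less of its mRNA per cell cannot be told apart either.

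Double-stranded RNA in the cytosol is read by several arms. RIG-I (RIGI) and MDA5 (IFIH1) are helicases that bind viral or misplaced cellular double-stranded RNA and signal through MAVS to interferon, while LGP2 (DHX58) is a related helicase without signaling domains. PKR (EIF2AK2) phosphorylates the initiation factor eIF2 and slows translation, the OAS enzymes make oligoadenylates, which act as second messengers, and ADAR converts adenosine to inosine in double-stranded RNA, which hides cellular RNA from these sensors. All of these genes are known interferon-stimulated genes, whose promoters often carry interferon-stimulated response elements.

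Promoter windows from 250 bases before to 50 bases after the transcription start were taken from RefSeq (GRCh38.p14) for the 6 members that had one, in 8 windows. No window was given for DHX58, OAS2 or OASL. The windows were searched on both strands for a GAAA half-site repeated after 2 bases of any kind, the core letters of the interferon-stimulated response element. The windows of IFIH1, EIF2AK2 and OAS3 held a match, against 3.57% of all 35116 windows. RIGI, OAS1 and OAS3 held the same repeat with 1 base between the half-sites, which was searched after these windows had been read and was present in 3.12% of all windows. Neither spacing was present in the windows of all these members. The stretches that held either spacing are printed, with matching letters in capitals and each stretch on the strand of its gene.
RIGI, chr9:32526381-32526409: ggtgcggaggGAAACGAAActagcccgag
IFIH1, chr2:162318821-162318850: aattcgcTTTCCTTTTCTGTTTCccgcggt
IFIH1, chr2:162318686-162318715: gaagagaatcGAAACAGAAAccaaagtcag
EIF2AK2, chr2:37156977-37156996: agtccaagggGAAAACGAAA
OAS1, chr12:112906935-112906961: cccttctgagGAAACGAAAccaacagc
OAS3, chr12:112938319-112938347: ctagaaaGAAACGAAACTGAAAgcaggga
OAS3, chr12:112938452-112938473: agccgggcggGAAAACGAAAcc
RIGI, IFIH1 and EIF2AK2 lie on the minus strand and OAS1 and OAS3 on the plus strand. The first IFIH1 stretch holds 2 overlapping matches on the opposite strand, and the first OAS3 stretch holds 1 match to each spacing, which overlap. The EIF2AK2 match begins 6 bases before the start and runs past it. The 3 ADAR windows held neither spacing, and none of them is at the annotated start of ADAR-202, the reference transcript of the long ADAR protein. These are letter matches only, and binding was not measured.

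TRMT112 was lower in both KD groups and higher in OE than in the matching EV libraries. Its normalized count, which is the count scaled by TMM to the mean effective library size, went from 4147 and 3938 in MDA-MB-231 EV to 1764 and 1682 in KD, from 6332 and 6566 in SUM159 EV to 3909 and 3699 in KD, and from 3076 and 3087 in BT549 EV to 4286 and 4319 in OE. Library totals lay between 22954226 and 27434677 expected counts. Both BT549 groups had 16 or fewer counts of KRT8 and KRT18 in each library, against at least 4617 in the other lines. Several other markers differed between BT549 EV and OE. KRT19 was at 12 to 17 counts in EV and 1 in OE, CDH1 at 46 to 58 and 16 to 21. VIM was at 42873 to 43227 in EV and 14860 to 15758 in OE. ZEB1 and FN1 were also lower in OE, while CDH2 was close, at 977 to 994 and 998 to 1061. ERBB2 was present in all 12 libraries at 1479 to 3089 counts. Of 9 markers of leukocytes, endothelium and blood, 5 were in the table, with summed counts of 45.8 to 48.1 in MDA-MB-231 EV and 111.5 to 142 in KD, 49.5 to 63.1 in SUM159 EV and 117 to 160 in KD, and 17 to 18 in BT549 EV and 91 to 93 in OE. The marker that accounted for most of the gap differed between the lines. CDH5, an endothelial cadherin, went from 16 to 18 counts in MDA-MB-231 EV to 81 to 105 in KD, PECAM1, also endothelial, from 24.5 to 25.1 in SUM159 EV to 87.8 to 119 in KD, and CD14, a monocyte marker, from 11 to 13 in BT549 EV to 78 to 80 in OE. CDH5 was at 0 in SUM159 and in BT549 EV, and PTPRC, the pan-leukocyte marker, had at most 15.8 counts in any library. The sums were higher in KD and OE than in EV, and their part in the results was not tested. No label says whether the 2 libraries of a group came from separate cultures, so p-values measure only the spread between these libraries.

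In BT549, all 9 members were lower in OE than in EV polysomes, from 5.07-fold for EIF2AK2 to 2295-fold for OAS2. At an adjusted p under 0.05 by edgeR's quasi-likelihood test, 35.0% of all tested genes were called lower in this comparison (5790 of 16538) and 70.6% were called in either direction. The median log2 fold change was -9.07 over the members and 0.02 over all tested genes. Of all tested genes, 2.24% were called lower with a log2 fold change under -5, and 7 of the 9 members were among them, all but EIF2AK2 and ADAR. RIGI is among these 7 only when counted alone, since its value was -4.13 when summed with an overlapping readthrough gene described below. The BT549 libraries of the 2 groups did not overlap for any member, as was so in this direction for 40.1% of all genes.

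**Figure D1:**
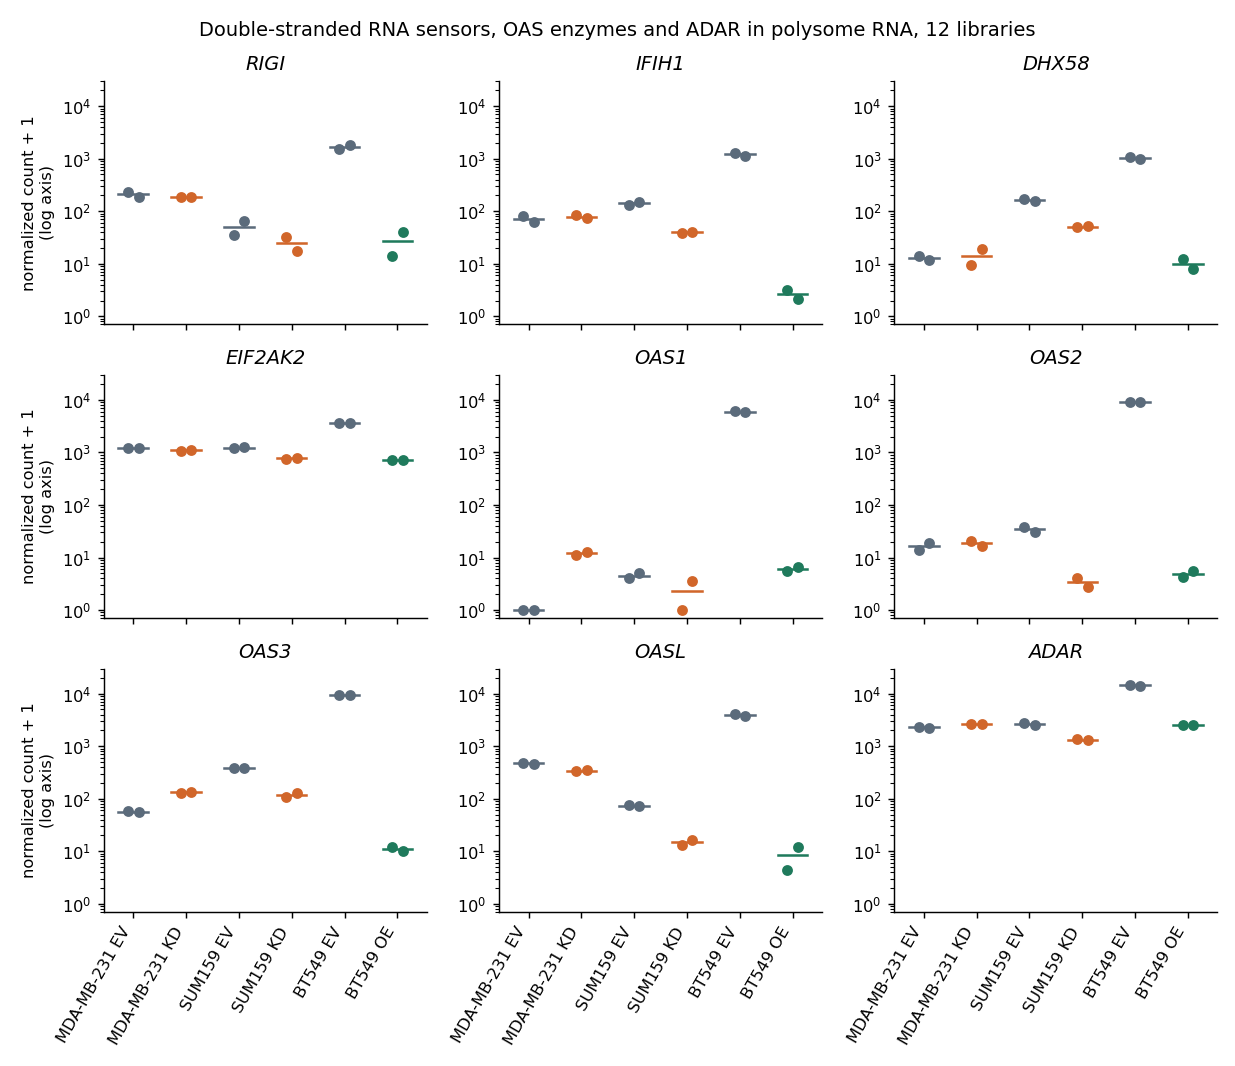
Normalized counts of each member in the 12 libraries, plotted as count + 1 on a log axis, with 1 point per library and a bar at the mean of each group (grey EV, orange KD, green OE). BT549 EV is the highest group in all 9 panels, and OAS1 sits at a count of 0 in both MDA-MB-231 EV libraries.

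Among the RIG-I-like receptors in BT549, IFIH1 (chr2:162267074-162318684) had normalized counts of 1273 and 1137 in EV and 2.21 and 1.13 in OE. The OE libraries held 3 IFIH1 counts between them, and the ratio of EV to OE was 718 with an exact 95% counting interval of 245 to 3484. For RIGI (chr9:32455302-32526208) the values were 1543 and 1826 in EV and 13.3 and 39.6 in OE, and the log2 fold change was -5.99 (SE 0.22, adjusted p = 2.5e-17, edgeR). The size of the RIGI difference turned on the OE library used, with -5.41 without OE replicate 1 and -6.98 without OE replicate 2. DHX58 (chr17:42101404-42112714) was at 1057 and 989 in EV and 11.1 and 6.79 in OE, with a log2 fold change of -6.82 (SE 0.20, adjusted p = 6.77e-19, edgeR). With RIGI counted alone, all 3 helicases had 989 or more normalized counts in both EV libraries and 39.6 or fewer in both OE libraries.

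RIGI counts share a locus with another gene. A readthrough gene, ENSG00000288684 (chr9:32455323-32552603, same strand), spans RIGI, and reads in shared exons could be divided between them by the counting. Its counts were 205 and 95.5 in BT549 EV and 76.9 and 64.8 in OE. When both were summed, an alternative added after the data were seen, the log2 fold change in BT549 was -4.13 (adjusted p = 1.61e-20, edgeR). In SUM159 the readthrough gene held 69.1 and 53.7 counts in EV and 55.0 and 74.2 in KD. The summed value there was -0.42 (SE 0.15, adjusted p = 0.0234, edgeR), against -1.08 for RIGI alone. In MDA-MB-231 it held 178 and 241 counts in EV and 214 and 262 in KD, and the summed value was 0.04 (SE 0.09), against -0.16 alone.

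The OAS-family genes also had 11.3 or fewer normalized counts in each BT549 OE library. OAS1, OAS3 and OAS2 lie next to each other on the plus strand of chromosome 12 (chr12:112905856-112933219, chr12:112938051-112976460 and chr12:112978395-113011723), and OASL, a family member that lacks synthetase activity, lies apart on the minus strand (chr12:121017763-121039246). OAS2 had normalized counts of 8966 and 9022 in EV and 3.32 and 4.53 in OE. The ratio was 2295 with an exact 95% counting interval of 1114 to 5710, since the OE libraries held 7 counts in all. OAS3 was at 9596 and 9438 in EV and 11.1 and 9.06 in OE, a log2 fold change of -9.87 (SE 0.10, adjusted p = 3.73e-28, edgeR).

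OAS1 showed 6096 and 5904 in EV and 4.43 and 5.66 in OE, and its log2 fold change was -10.18 (SE 0.13, adjusted p = 4.06e-25, edgeR). OASL was at 4138 and 3816 in EV and 3.32 and 11.3 in OE, a log2 fold change of -9.07 (SE 0.14, adjusted p = 2.27e-24, edgeR). The OASL value was -8.44 without OE replicate 1 and -10.18 without OE replicate 2. An antisense lncRNA gene overlaps the OAS1, OAS3 and OAS2 loci, and the strand setting of the counting is not given in the sources used here. The family members are similar in sequence, so reads may also be divided between them.

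EIF2AK2 and ADAR had the smallest differences of the 9 members. EIF2AK2 (chr2:37099210-37157522) was at 3704 and 3570 in EV and 730 and 704 in OE, a log2 fold change of -2.34 (SE 0.05, adjusted p = 4.66e-21, edgeR). ADAR (chr1:154581695-154628013) was at 14333 and 14188 in EV and 2510 and 2486 in OE, a log2 fold change of -2.51 (SE 0.04, adjusted p = 9.27e-25, edgeR). Both had at least 704 normalized counts in each OE library, where the other 7 members, with RIGI counted alone, had at most 39.6.

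**Figure D2:**
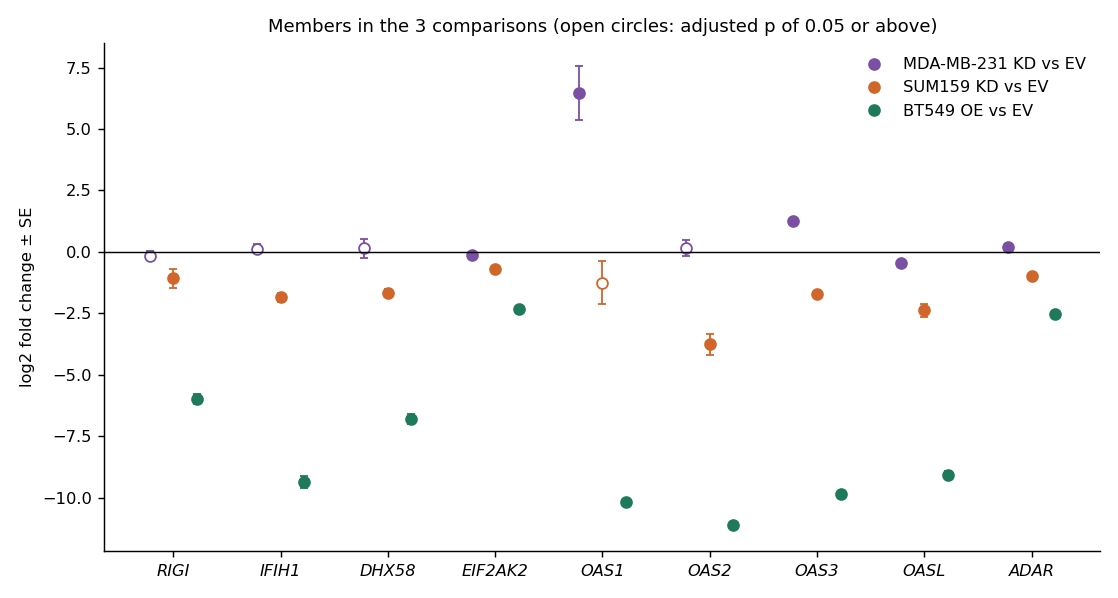
Log2 fold change of each member with its standard error (edgeR) for KD against EV in MDA-MB-231 (purple) and SUM159 (orange) and for OE against EV in BT549 (green), with open circles where the adjusted p was 0.05 or above. The BT549 points run from -11.12 to -2.34 and the SUM159 points from -3.77 to -0.68, and the high OAS1 point in MDA-MB-231 is a fit against 2 libraries without a count.

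In SUM159, 8 of the 9 members were lower in KD than in EV and OAS1 was too low to call. Of all tested genes, 60.1% were called in this comparison, 31.4% lower (5200 of 16538) and 28.6% higher, and no member was called higher. By normalized count, the KD libraries lay below the EV libraries for all 9 members, as was so for 39.2% of all genes. For OAS1 this rests on the library scaling alone, since EV replicate 1 and KD replicate 2 both held 3 counts. The median log2 fold change was -1.68 over the members and 0.00 over all tested genes, and 6 of 9 members were called lower with a log2 fold change under -1, against 8.39% of all genes. RIGI is among these 6 only when counted alone, since its value was -0.42 when summed with the readthrough gene. TRMT112 was lower in SUM159 KD and higher in BT549 OE, and 8 members were called lower in both comparisons, as were 13.4% of all tested genes (2208).

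Of the helicases in SUM159, IFIH1 fell from 131 and 149 normalized counts in EV to 38.3 and 38.9 in KD, with a log2 fold change of -1.85 (SE 0.18, adjusted p = 5.26e-09, edgeR). DHX58 fell from 170 and 153 to 48.4 and 51.9, with a log2 fold change of -1.68 (SE 0.18, adjusted p = 1.49e-08, edgeR). Each pair of libraries lay close together and the groups were well apart for both genes. For RIGI the log2 fold change was -0.42 with the readthrough gene summed in, as given above. Counted alone, RIGI had 34.3 and 64.3 in EV and 31.3 and 16.4 in KD, a log2 fold change of -1.08 (SE 0.38, adjusted p = 0.0177, edgeR). The RIGI groups only just separated, and the call was lost with DESeq2 (adjusted p = 0.101), without EV replicate 2 (-0.56, adjusted p = 0.348, edgeR) and without KD replicate 2 (-0.65, adjusted p = 0.234, edgeR).

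OAS3 fell from 382 and 390 in SUM159 EV to 105 and 129 in KD, with a log2 fold change of -1.71 (SE 0.10, adjusted p = 2.12e-13, edgeR). OASL was at 74.7 and 71.4 in EV and at 12.1 and 15.6 in KD, a log2 fold change of -2.38 (SE 0.26, adjusted p = 2.98e-08, edgeR). OAS2 went from 37.3 and 29.2 to 3.02 and 1.73, and with 5 counts in the KD libraries the ratio was 14.3 (exact 95% counting interval 5.82 to 45.4). OAS1 held 3 and 4 counts in EV and 0 and 3 counts in KD, a ratio of 2.52 with an interval of 0.576 to 15.1, so no difference was detectable at this depth. The other 3 OAS-family genes were each lower in both KD libraries than in both EV libraries.

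EIF2AK2 in SUM159 was at 1198 and 1269 in EV and 753 and 782 in KD, a log2 fold change of -0.68 (SE 0.06, adjusted p = 2.9e-10, edgeR). ADAR was at 2746 and 2523 in EV and 1343 and 1328 in KD, a log2 fold change of -0.98 (SE 0.04, adjusted p = 2.12e-15, edgeR). As in BT549, these 2 genes had narrow standard errors and high counts in both groups.

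In MDA-MB-231 the members did not move as a group. Of the 9, OAS1, OAS3 and ADAR were called higher in KD and OASL and EIF2AK2 lower, while RIGI, IFIH1, DHX58 and OAS2 were not called. These 5 calls stand beside 37.7% of all tested genes called in either direction (6240 of 16538), with 21.2% higher and 16.5% lower. The libraries of the 2 groups did not overlap for the same 3 members in the higher and 2 in the lower direction, as was so for 33.7% and 32.3% of all genes. The median log2 fold change of the members was 0.14, also with OAS1 set at the 3.93-fold value given below, against 0.00 over all tested genes.

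OAS1 had no count in either MDA-MB-231 EV library and 11 and 12 counts in the KD libraries. Against 3 counts per library, taken as the most that a count of 0 allows, the mean OAS1 level in KD was 3.93-fold higher. This value leaves out the counting error of the KD libraries. The exact 95% counting interval of the ratio of KD to EV begins at 5.89. The fitted difference was called (adjusted p = 6.57e-05, edgeR). OAS3 rose from 56.4 and 54.8 normalized counts in EV to 127 and 136 in KD, with a log2 fold change of 1.24 (SE 0.14, adjusted p = 2.44e-07, edgeR). ADAR rose from 2274 and 2256 to 2605 and 2653, by 0.22 (SE 0.04, adjusted p = 0.000135, edgeR). Most of the OAS3 rise was counted in 2 transcripts. OAS3-225, annotated as a target of nonsense-mediated decay, had 2.78 and 0.353 counts in EV and 56.1 and 51.9 in KD, and a protein-coding transcript of 177 amino acids had 3.92 and 3.40 in EV and 23.1 and 26.0 in KD. The reference transcript OAS3-201 had 9.13 and 0.207 counts in EV and 0.415 and 0.54 in KD. OAS3 in MDA-MB-231 KD, with a mean of 132, did not differ from OAS3 in SUM159 KD, with a mean of 117 (adjusted p = 0.235, edgeR).

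OASL fell from 470 and 465 in MDA-MB-231 EV to 330 and 356 in KD, with a log2 fold change of -0.45 (SE 0.09, adjusted p = 0.000266, edgeR). EIF2AK2 was at 1216 and 1200 in EV and 1060 and 1135 in KD, a log2 fold change of -0.14 (SE 0.05, adjusted p = 0.0461, edgeR). The EIF2AK2 call was close to the threshold and was lost under 12 of 21 alternatives and turned in sign under 1 other, among them DESeq2 (adjusted p = 0.138) and leaving out EV replicate 1 (adjusted p = 0.161), EV replicate 2 (adjusted p = 0.119) or KD replicate 1 (adjusted p = 0.366), all with edgeR. Leaving out some SUM159 and BT549 libraries, which share the estimate of the spread, also moved it just above the threshold, to adjusted p-values of 0.0508 to 0.0585 (edgeR).

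The 4 members that were not called in MDA-MB-231 had small differences with limits on either side. RIGI was at 236 and 182 in EV and 185 and 189 in KD, and its log2 fold change of -0.16 had limits of -0.53 to 0.21 at 2 SE. For IFIH1, at 80.9 and 61.2 in EV and 82.4 and 73.2 in KD, the limits were -0.22 to 0.49. OAS2 was at 13.2 and 18.3 in EV and 19.7 and 15.4 in KD, with limits of -0.47 to 0.78. DHX58 was the least certain, at 13.2 and 10.96 in EV and 8.43 and 18.3 in KD, with limits of -0.65 to 0.93. The log2 fold changes of these genes in SUM159, -1.68 for DHX58 and -3.77 for OAS2 among them, lie outside these limits, without regard to their own error. For RIGI, the SUM159 limits of -1.84 to -0.32 overlap those in MDA-MB-231, and the difference itself was not called (adjusted p = 0.0772, edgeR).

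The difference of the KD effects between the 2 lines was tested in the same model. It was called for 8 of 9 members, all with the higher value in MDA-MB-231, beside 50.9% of all tested genes called in either direction and 27.7% called higher in MDA-MB-231. The difference was 2.95 on the log2 scale for OAS3 (SE 0.17, adjusted p = 9.76e-13, edgeR), which rose in MDA-MB-231, in the transcripts named above, and fell in SUM159. ADAR also rose in one line and fell in the other, with 1.20 (SE 0.06, adjusted p = 4.8e-14, edgeR). It was 1.93 for OASL and 0.54 for EIF2AK2, both of which were called lower in both lines. For RIGI the difference of 0.92 (SE 0.42) did not pass (adjusted p = 0.0772, edgeR), and it did pass at 0.45 when the readthrough gene was added (adjusted p = 0.0387, edgeR). The DHX58 difference of 1.82 was lost without MDA-MB-231 KD replicate 2 (1.18, adjusted p = 0.113, edgeR).

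Across the 6 groups, BT549 EV was the highest group for every member and differed from the next group in each case. The next group was MDA-MB-231 EV for RIGI and OASL, MDA-MB-231 KD for OAS1 and SUM159 EV for the other 6 members. The gap to it was smallest for EIF2AK2, 1.56 on the log2 scale (SE 0.05, adjusted p = 9.68e-19, edgeR), and largest for OAS1, 9.08 (SE 0.11, adjusted p = 1.44e-25, edgeR). All 9 members were called higher in BT549 EV than in each of the other EV groups (lines and vectors differ together here), beside 79.5% of all genes called in either direction against MDA-MB-231 EV and 78.4% against SUM159 EV.

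The EV groups of MDA-MB-231 and SUM159 also differed. Of the 9 members, 6 were called higher in SUM159 EV, 2 (RIGI and OASL) lower and EIF2AK2 was not called, beside 75.7% of all genes called. OAS1 is among the 6 on 3 and 4 counts in SUM159 EV against 0 in both MDA-MB-231 EV libraries. A count of 0 allows up to 3 counts, so its difference is not resolved at this depth. The mean normalized count of OASL was 468 ± 3.94 (SD, n = 2) in MDA-MB-231 EV and 73.0 ± 2.34 (SD, n = 2) in SUM159 EV. DHX58 lay the other way, at 12.1 ± 1.56 (SD, n = 2) and 161 ± 11.8 (SD, n = 2). EIF2AK2 was nearly level, at 1208 ± 11.7 (SD, n = 2) and 1233 ± 50.0 (SD, n = 2), with an adjusted p of 0.624 (edgeR).

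At the low end, the order of the groups was often unresolved. BT549 OE and SUM159 KD were neighbours for 5 members and did not differ for RIGI, EIF2AK2, OAS2 and OASL, with adjusted p-values of 0.737, 0.154, 0.411 and 0.0771 (edgeR). IFIH1 did differ between them, with means of 38.6 in SUM159 KD and 1.67 in BT549 OE (adjusted p = 2.42e-08, edgeR). For DHX58, the 2 MDA-MB-231 groups and BT549 OE could not be ordered, with means of 13.4, 12.1 and 8.93. For OAS1, no neighbours below BT549 EV differed, and all 5 of those groups had means of 10.9 or fewer normalized counts. For ADAR, SUM159 EV, MDA-MB-231 KD and BT549 OE had means of 2635, 2629 and 2498, whose neighbours did not differ, above 2265 in MDA-MB-231 EV and 1335 in SUM159 KD.

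Levels were compared between genes per transcript length, as TPM (transcript counts divided by length and scaled to the same sum in each library), computed here from the expected counts. ADAR had the highest TPM of the 9 members in all 6 groups and under both alternative length scalings, with 362 ± 3.08 (SD, n = 2) in BT549 EV, 47.3 ± 0.75 in MDA-MB-231 EV and 38.9 ± 4.94 in SUM159 EV. In BT549 EV it was followed by OAS1 at 243 ± 3.84 TPM, OAS2 at 147 ± 2.00, OASL at 146 ± 7.49 and OAS3 at 115 ± 2.97, where the OAS2 and OASL libraries overlapped. By mean TPM, ADAR ranked 493 and OAS1 ranked 757 among all 24559 symbols in BT549 EV, and OAS1 ranked 15384 in BT549 OE. The place of OAS1 depended on the length used. With the longest transcript's length its level was 77.7 TPM and it came after OAS2, OASL and OAS3.

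The sensors lay lower on this scale. In BT549 EV, EIF2AK2 was at 41.0 ± 2.20 TPM, DHX58 at 32.9 ± 2.40, RIGI at 25.4 ± 2.81 and IFIH1 at 22.8 ± 1.78, of which RIGI and IFIH1 overlapped. In BT549 OE, EIF2AK2 was at 7.17 ± 0.44 TPM and RIGI, DHX58 and IFIH1 were each under 1 TPM, at 0.47, 0.41 and 0.039. The 9 members together held 0.190% and 0.187% of all counts in the BT549 EV libraries and 0.0124% and 0.0125% in the OE libraries.

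The makeup of the OAS family differed between the lines. OASL held 91.5% and 91.3% of the summed OAS-family TPM in the MDA-MB-231 EV libraries, whereas OAS3 held 70.0% and 68.1% in the SUM159 EV libraries. In BT549 EV all 4 genes had a sizeable share, with OAS1 at 37.5% and 37.2%. The KD libraries kept the leading gene of their line, OASL at 75.7% and 75.6% in MDA-MB-231 and OAS3 at 88.9% and 86.7% in SUM159. In BT549 OE the summed level was under 1 TPM and the 2 libraries disagreed, with OAS3 at 37.9% and 11.4%, so no share is read there.

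**Figure D3:**
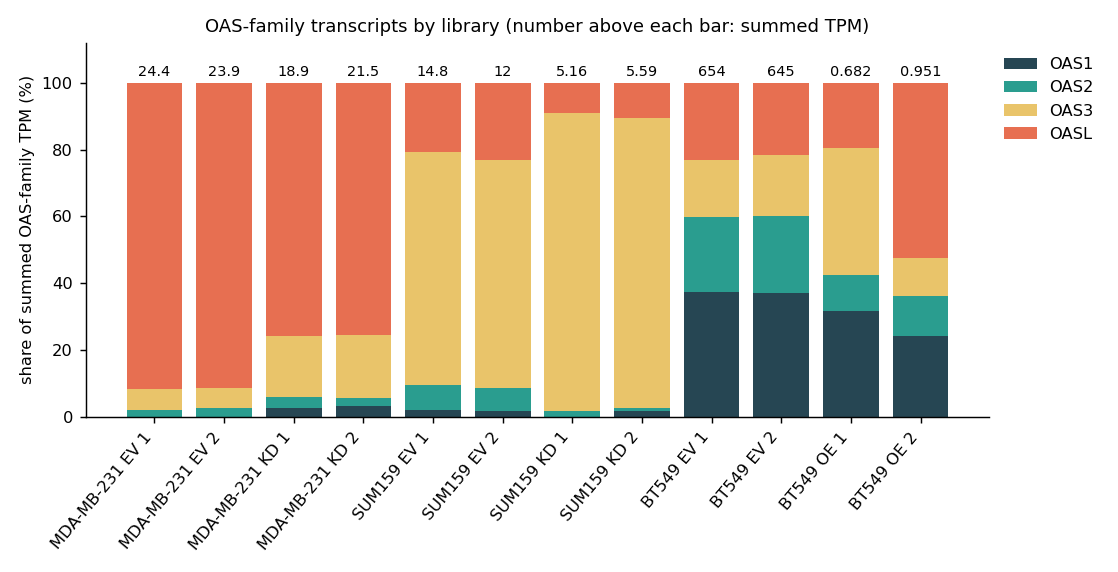
Share of the summed OAS-family TPM held by OAS1, OAS2, OAS3 and OASL in each of the 12 libraries (stacked bars, percent), with the summed TPM above each bar. OASL leads in MDA-MB-231 (75.6% to 91.5%), OAS3 leads in SUM159 (68.1% to 88.9%), and the sums run from 0.682 TPM in BT549 OE to 654 TPM in BT549 EV.

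ADAR makes 2 proteins, a long interferon-inducible form (p150) and a shorter constitutive form (p110) whose mRNAs lack the upstream start codon. Its protein-coding transcripts were grouped by annotated start codon, and its other transcripts were fitted apart. The p150 class had normalized counts of 7849 and 8095 in BT549 EV and 924 and 813 in OE, a log2 fold change of -3.20 (SE 0.09, adjusted p = 1.44e-19, edgeR). The p110 class was at 4418 and 4142 in EV and 1473 and 1514 in OE, a log2 fold change of -1.52 (SE 0.06, adjusted p = 4.34e-16, edgeR). The p150 class was the more abundant one in BT549 EV and the less abundant one in the other 5 groups.

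Of the counts in these 2 classes, p150 held 64.0% and 66.2% in BT549 EV and 38.6% and 34.9% in OE, and it held 28.9% to 44.8% in the 8 libraries of the other lines. In MDA-MB-231, the p150 class rose from 596 and 671 normalized counts to 948 and 820, by 0.48 on the log2 scale (SE 0.10, adjusted p = 0.000816, edgeR). The p110 class there was at 1463 and 1380 in EV and 1308 and 1486 in KD, which did not differ (adjusted p = 0.828, edgeR). In SUM159 both classes were lower in KD, p150 with a log2 fold change of -1.22 (SE 0.11, adjusted p = 1.22e-09, edgeR) and p110 with -0.86 (SE 0.07, adjusted p = 4.86e-10, edgeR). The p150 shares in SUM159 KD, 30.1% and 42.5%, spread more than those in EV, 44.8% and 40.4%, and overlapped them. Whether the 2 classes changed by different amounts was not tested, and both depend on how the authors' counting divided reads between transcripts that share most of their exons.

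**Figure D4:**
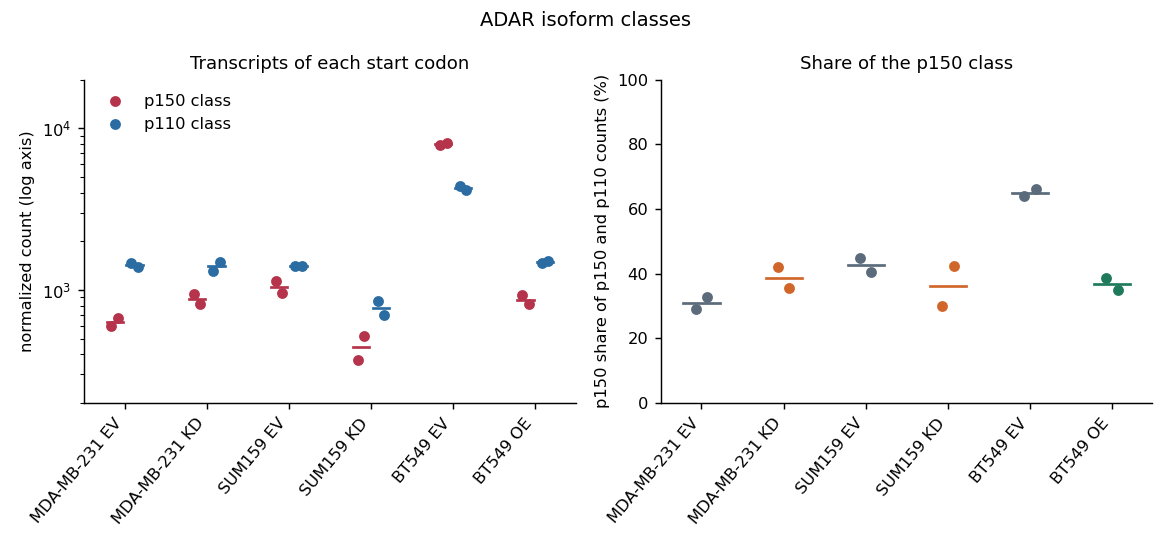
ADAR transcripts grouped by start codon. The left panel shows normalized counts of the p150 (red) and p110 (blue) classes on a log axis and the right panel the p150 share of both classes in percent, with 1 point per library and a bar at each group mean. BT549 EV is the only group whose p150 share (64.0% and 66.2%) is above 50%.

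The gene sums of the other members combine several transcripts. In BT549 EV, of the OAS1 counts, 87.7% and 88.0% were in transcripts with the stop codon of the reference (MANE) transcript, OAS1-201, which encodes 400 amino acids. In the same 2 libraries OASL was counted mainly as OASL-206, with 63.8% in both and 372 annotated amino acids, while the reference transcript OASL-201 of 514 amino acids had 7.25% and 6.80%. For OAS3 in BT549 EV, 45.9% and 46.2% of the counts fell in 16 transcripts annotated as targets of nonsense-mediated decay. These shares do not hold for groups with few counts, since OASL-206 had 0% and 25.3% of the OASL counts in SUM159 KD, where OASL-202 had 82.5% and 50.7%. For each member, the transcript with the highest mean count over the 12 libraries was also tested singly, a choice that BT549 EV dominates. It was called lower in OE for all 9, beside 22.1% of 64066 transcripts called in either direction. Tested in the same way, 5 members were called in SUM159, 1 in MDA-MB-231 and 3 for the difference of the KD effects, beside 13.2%, 3.7% and 8.87% of transcripts. These were often not the most counted transcripts of the KD lines. OAS3-201 had 0.415 and 0.54 counts in MDA-MB-231 KD, where OAS3-225 had 56.1 and 51.9.

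The genes around the members were taken from pathway lists. In BT549, 14 of 21 tested genes of RIG-I-like receptor signaling were called lower in OE and 3 higher, beside 35.0% and 35.6% of all genes, with a median log2 fold change of -0.50. TRIM25, the ubiquitin ligase that activates RIG-I, was at 4195 and 4240 in EV and 300 and 257 in OE (log2 fold change -3.92, SE 0.06, adjusted p = 1.56e-24, edgeR). IRF7, the transcription factor that amplifies type I interferon, was at 2485 and 2310 in EV and 142 and 145 in OE (-4.06, SE 0.09). MAVS, the mitochondrial adaptor of RIG-I and MDA5, changed less, from 4960 and 5039 to 2176 and 2212 (-1.19, SE 0.04). RNF125, a ubiquitin ligase that marks RIG-I for decay, went from 60.2 and 60.9 normalized counts to 0 and 1.13, a ratio of 108 with an exact 95% counting interval of 19.0 to 4312.

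In SUM159, 14 of the same 21 genes were called lower in KD and 2 higher, with a median of -0.39, beside 31.4% and 28.6% of all genes. In MDA-MB-231, 6 were called lower and 8 higher, with a median of -0.04, beside 16.5% and 21.2% of all genes. RNF125 was called lower in both KD lines, with log2 fold changes of -0.99 in MDA-MB-231 (SE 0.18) and -2.38 in SUM159 (SE 0.21). TRIM25 was called lower in both as well, by -0.13 (SE 0.04) and -1.45 (SE 0.05), and so was TRAF3, a ligase downstream of MAVS, by -0.29 (SE 0.04) and -0.78 (SE 0.04). MAVS was called higher in SUM159 KD, by 0.40 (SE 0.04), and lower in MDA-MB-231 KD, by -0.12 (SE 0.04, adjusted p = 0.00647, edgeR), and IRF7 was called in neither KD line.

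ABCE1, a ribosome recycling factor, was not called in BT549 (log2 fold change 0.07, adjusted p = 0.221, edgeR) but was lower in SUM159 KD by -1.39 (SE 0.05) and in MDA-MB-231 KD by -0.15 (SE 0.05). PDE12, which degrades oligoadenylates, was called lower in SUM159 KD and BT549 OE, by -0.57 (SE 0.09) and -0.60 (SE 0.09).

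Of 8 PKR-arm genes, 7 were called lower and 1 higher in BT549 OE, beside 35.0% and 35.6% of all genes, and all lay between -0.94 and 0.32. EIF2S1, which encodes the eIF2 subunit that PKR phosphorylates, was called lower in all 3 comparisons, by -0.28 in MDA-MB-231 (SE 0.04), -0.74 in SUM159 (SE 0.04) and -0.45 in BT549 (SE 0.04). In SUM159 KD, 6 were called lower and 1 higher, and in MDA-MB-231 KD 4 lower and 1 higher, beside 31.4% and 28.6% of all genes in SUM159 and 16.5% and 21.2% in MDA-MB-231. DDIT3, a stress transcription factor, fell from 840 and 789 to 357 and 398 in MDA-MB-231 (-1.11, SE 0.08) and from 860 and 898 to 220 and 219 in SUM159 (-2.00, SE 0.08). PPP1R15A, which recruits the eIF2 phosphatase, was called lower by -0.70 (SE 0.03) and -1.07 (SE 0.04). ATF4 was not called in MDA-MB-231 (adjusted p = 0.192, edgeR) and was lower by -1.01 (SE 0.03) in SUM159 and by -0.74 (SE 0.03) in BT549, and PPP1R15B was higher in MDA-MB-231 KD (0.36, SE 0.05) and lower in the other 2 comparisons (-0.35 and -0.94).

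Of 22 other tested genes that bind or sense double-stranded RNA, 15 were called lower and 6 higher in BT549 OE, 12 lower and 1 higher in SUM159 KD, and 6 lower and 3 higher in MDA-MB-231 KD, with medians of -0.54, -0.50 and -0.05. The shares of all genes called lower and higher were 35.0% and 35.6%, 31.4% and 28.6%, and 16.5% and 21.2% in these comparisons. SAMD9, an antiviral factor, was at 610 and 564 in BT549 EV and 4.43 and 5.66 in OE (-6.83, SE 0.24), and was called in neither KD line. Its paralog SAMD9L was at 740 and 846 in EV and held 3 counts in the OE libraries, a ratio of 472 (exact 95% counting interval 161 to 2292). DDX60L, a DExD/H-box helicase, was lower in OE (-3.92, SE 0.15) and higher in MDA-MB-231 KD (0.53, SE 0.15). ADARB1, a second adenosine deaminase, went against ADAR in BT549, from 98.5 and 69.8 in EV to 352 and 364 in OE (2.09, SE 0.13), and was also higher in both KD lines (0.55 and 0.35). PNPT1, which limits mitochondrial double-stranded RNA, was lower in all 3 (-0.46, -1.20 and -1.23).

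Of the genes of cytosolic DNA sensing, 5 of 5 tested were called lower in BT549 OE (35.0% of all genes), with a median of -2.37, and STING1 among them is also on the list of RIG-I-like receptor signaling. IFI16, a DNA sensor, was at 1049 and 1067 in EV and held 2 counts in the OE libraries, a ratio of 945 (exact 95% counting interval 261 to 7810). It rose from 232 and 212 to 438 and 405 in MDA-MB-231 KD and fell from 1581 and 1600 to 536 and 611 in SUM159 KD. SAMHD1, which depletes deoxynucleotides, was lower in BT549 OE by -4.10 (SE 0.06) and in SUM159 KD by -0.58 (SE 0.07). TREX1, which degrades cytosolic DNA, was lower in OE (-2.37, SE 0.07) but higher in both KD lines (0.32 and 1.13). Over the list, 3 genes were called lower and 1 higher in SUM159 KD, beside 31.4% and 28.6% of all genes, and 3 higher in MDA-MB-231 KD, beside 21.2%.

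Interferon ligands themselves were hardly counted. None of the 7 listed passed the filter and 5 had a row in the table. The table holds no row without counts in BT549, so ligand transcripts present only in MDA-MB-231 or SUM159 could not be seen. IFNB1 held 8 and 16 counts in the BT549 EV libraries and 0 in the other 10 libraries, each of which allows up to 3 counts. Of 12 tested genes of the interferon receptor and its transcription factors, 9 were called lower and 2 higher in BT549 OE, 9 lower and 0 higher in SUM159 KD, and 3 lower and 4 higher in MDA-MB-231 KD, with medians of -1.47, -0.39 and 0.01. Of all genes, 35.0% were called lower and 35.6% higher in BT549, 31.4% and 28.6% in SUM159, and 16.5% and 21.2% in MDA-MB-231. USP18, which restrains the receptor, was at 5379 and 5382 in BT549 EV and 34.3 and 20.4 in OE (-7.61, SE 0.12) and was also lower in both KD lines (-0.56 and -0.65). IRF1 was lower in BT549 OE (-3.01, SE 0.07) and SUM159 KD (-2.10, SE 0.09) but higher in MDA-MB-231 KD (0.45, SE 0.08).

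**Figure D5:**
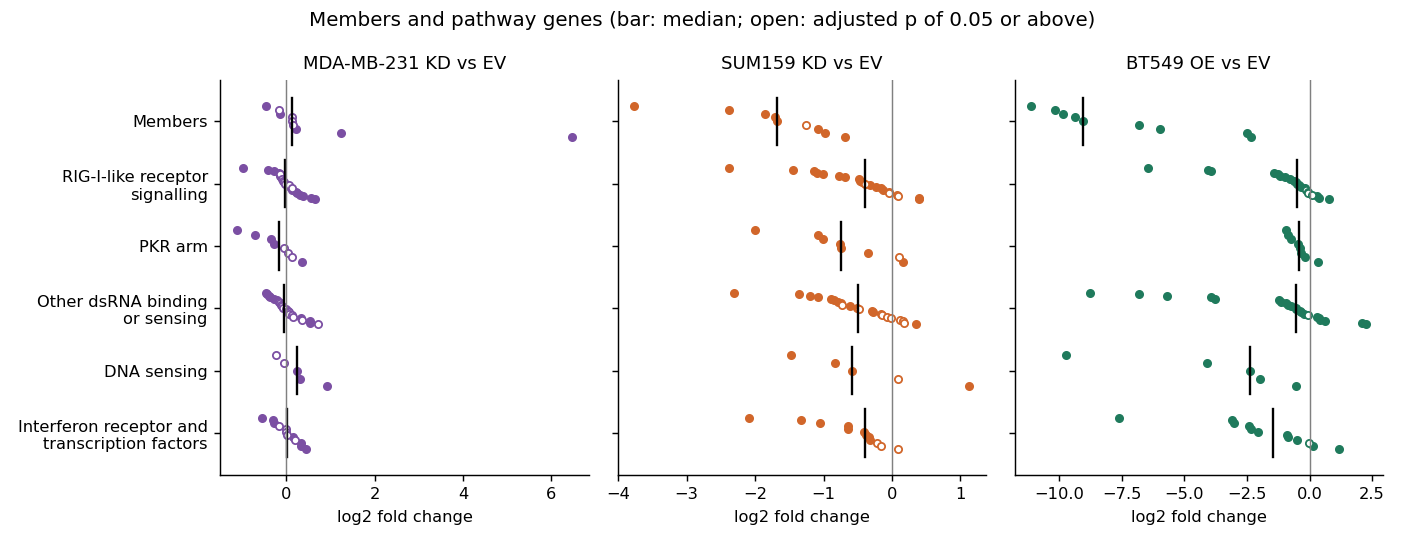
Log2 fold change of every tested gene of the members and of 5 pathway lists in the 3 comparisons, 1 point per gene, with a bar at the median of each list and open circles where the adjusted p was 0.05 or above. In BT549 the member median is -9.07 while the medians of the other lists lie between -2.37 and -0.42, and the horizontal scales differ between panels.

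Over the 12 libraries the members rose and fell with one another to differing degrees. Pearson's r of log2 CPM was 0.84 in the median over the 36 pairs of members, from 0.52 for DHX58 with OASL to 0.98 for EIF2AK2 with OAS2. The most similar of 12589 tested genes averaging 50 or more counts were ENSG00000278948 and TBC1D2 for RIGI (0.98 and 0.98), APOL6 and TACC2 for IFIH1 (0.99 and 0.98), TLR3 and ZC3H10 for DHX58 (0.99 and 0.99), and GLA and RETREG1 for EIF2AK2 (0.99 and 0.98). For the OAS family they were IFI35 and UBE2Z for OAS1 (0.98 and 0.98), SLC15A3 for OAS2 (0.99), HLA-C and PSME1 for OAS3 (0.99 and 0.99), and ENSG00000278948 and SAMHD1 for OASL (0.98 and 0.98). NMI and LAP3 were most like ADAR (0.99 and 0.98). These coefficients describe 12 libraries that share 3 cell lines, with BT549 EV far above the rest, and the libraries are not independent.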

How the data were processed

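Pooled polysome fractions of MDA-MB-231, SUM159 and BT549 cells gave 12 RNA-seq libraries, 2 per group. Different accounts of the library kit exist, a poly(A) kit in the labels and a stranded, rRNA-depleted kit in the study's methods. The methods list Trimmomatic for trimming, HISAT2 with GRCh38 for alignment and SAMtools for removing duplicates. What the authors deposited are expected counts of Ensembl transcripts, not normalized. In the 8 columns of MDA-MB-231 and SUM159 a missing mark replaces the value in 10254 of 201932 rows (5.08%), so their unit was listed as other, and a mark was read as 0. Of the members' transcripts only 1, of OAS1, was marked. The counting tool and its strand setting are not given in the sources used here. No row is at 0 in all 4 BT549 libraries, so mRNAs without counts in BT549 were not analysed here.

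Transcripts were matched to GENCODE 44 (79.6% of rows, at least 99.2% of counts), summed per symbol and rounded. After filterByExpr and TMM scaling, a group-means model was fitted by edgeR 4.0.16 in R 4.3.3 with quasi-likelihood tests on 6 residual degrees of freedom. P-values were adjusted by Benjamini-Hochberg over 16538 genes and called under 0.05. Standard errors were derived from the F statistics. TPM used the annotated transcript lengths. The ratios of low counts carry exact binomial (Clopper-Pearson) intervals at 95%, and these and the floor of 3 counts (0.109 to 0.131 CPM) cover counting error only. The fit was tested on simulated counts in which 200 of 16538 genes were changed per comparison. Of these, 95.5%, 93.5% and 92% were called for MDA-MB-231, SUM159 and BT549. Unchanged genes made up 8.17%, 7.88% and 2.65% of the calls, the first 2 above the rate that the threshold of 0.05 aims at. Far fewer genes were changed there than were called in these data, so the check is limited. Python 3.11.15 (pandas 2.3.3, numpy 2.4.6, scipy 1.17.1, matplotlib 3.10.9) prepared tables and figures.

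The members and the pathway lists were chosen with earlier results of these data known. Beside the members, the text names per list the 3 genes with the smallest p in BT549, up to 3 called in the same direction in both KD lines, and per member the 2 genes with the highest Pearson's r over the libraries. The other counts are given by list. Some genes that this rule selects, and 1 list, are not reported here. The alternatives replaced TMM by RLE factors or by plain library sizes, edgeR by DESeq2 1.42.0, and the filter by none or by a mean count of 50. Others added the replicate number as a block, fitted each line separately, dropped the marked transcripts, used the main transcript alone, changed the length scaling or left out 1 library at a time.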

Additional observations from a re-analysis of the deposited data

Results flagged for a closer look

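The KD effect differed between MDA-MB-231 and SUM159 for 8 of the 9 members by the test of the difference itself (edgeR's quasi-likelihood test, beside 50.9% of all tested genes). On the log2 scale, MDA-MB-231 minus SUM159, the difference was 1.99 for IFIH1 (adjusted p = 6.73e-07), 1.82 for DHX58 (adjusted p = 0.00134) and 0.54 for EIF2AK2 (adjusted p = 3.06e-06). In the OAS family it was 3.92 for OAS2 (adjusted p = 2.38e-06), 2.95 for OAS3 (adjusted p = 9.76e-13) and 1.93 for OASL (adjusted p = 3.65e-06). It was 1.20 for ADAR (adjusted p = 4.8e-14). For OAS1 the fitted value was 7.73 (adjusted p = 0.000251), which is no bound. That value rests on 11 and 12 counts in MDA-MB-231 KD and on 0 to 4 per library in the other groups of this contrast. It moved to 11.29 without SUM159 KD replicate 2. OAS3 and ADAR rose in both KD libraries of MDA-MB-231 and fell in both of SUM159.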

How the results depend on the processing

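The 9 members were called lower in BT549 OE under every alternative fit listed above, and 9 were called without any one library. For the main transcript this is no independent check, since BT549 EV dominates the mean count by which that transcript was chosen. The mean count of 50 is likewise reached by OAS1 and OAS2 only through BT549 EV. In MDA-MB-231, 4 to 5 members were called without any one library, in SUM159 7 to 8, and for the difference of the KD effects 7 to 9. All genes called without any one library numbered 4875 to 6310 in MDA-MB-231, 8936 to 9972 in SUM159 and 10851 to 11765 in BT549. With the main transcript tested singly, 1 member was called in MDA-MB-231, 5 in SUM159 and 3 for the difference. In that fit the value turned to 0.14 for EIF2AK2 (adjusted p = 0.959, edgeR) and -2.85 for OAS3 (adjusted p = 0.651, edgeR) in MDA-MB-231, and to -0.47 for the difference of OAS3 (adjusted p = 1.00, edgeR). The OAS3 transcript in that fit, OAS3-201, had 9.13 and 0.207 counts in MDA-MB-231 EV and 0.415 and 0.54 in KD, too few to read a direction from. For EIF2AK2 the cause was not tested. OAS1 in SUM159 was called without KD replicate 2 (-4.84, adjusted p = 0.0345, edgeR), and was not tested when SUM159 was fitted alone. The RIGI difference was also called with no filter (0.94, adjusted p = 0.00478, edgeR) and without MDA-MB-231 EV replicate 1, SUM159 EV replicate 1 or SUM159 KD replicate 1 (1.12 to 1.42).

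Libraries with the same replicate number did not deviate together over genes (correlations of 0.003, -0.030 and 0.016). With only 1 replicate difference per group, this check cannot exclude that such libraries were prepared together. With the replicate block, 4 members were called in MDA-MB-231, 8 in SUM159, 9 in BT549 and 8 for the difference, and 6217, 9831 and 11581 genes were called in the 3 comparisons. DESeq2 called 4, 7, 9 and 8 members. Counts near 0 limit OAS1 outside BT549 EV, and OAS2 and IFIH1 in the lowest groups. Under the other length scalings 86 levels moved by more than 1 SD and 22 did not, and ADAR stayed first in every group. TMM-scaled counts per kilobase, which are among these scalings, have another unit than TPM, so this tally also counts the change of unit.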
